A study of Mus musculus with 18 samples.

Results

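Glycolysis splits glucose into pyruvate in the cytosol, and lactate dehydrogenase turns pyruvate into lactate where the cell does not send it on to the mitochondria. The 10 genes described here encode enzymes at 5 places of that route: the hexokinases Hk1 and Hk2, which trap glucose in the cell as glucose 6-phosphate; the phosphofructokinases Pfkl, Pfkm and Pfkp, which commit it to glycolysis; the aldolases Aldoa and Aldoc; phosphoglycerate kinase Pgk1; and the lactate dehydrogenases Ldha and Ldhb. Members were chosen by gene symbol, and each of the 10 was listed in all 3 deposited tables, which together hold 14068 genes, 10505 of them in every table. Isozymes of one step differ in where they are made: photoreceptors are known for high glycolysis with lactate release and for Hk2, astrocytes for Aldoc, and LDHA subunits favour lactate formation while LDHB subunits favour its use. Endothelial cells, which line blood vessels, are known to draw much of their energy from glycolysis even with oxygen at hand.

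RNA was sequenced from mice that carry Tie2-cre and NuTRAP, a Cre-dependent reporter that tags ribosomes with a green fluorescent protein, so that translating ribosomes of the marked cells can be pulled down with an antibody (TRAP). The groups were the positive (pulled-down) fraction and the input of choroid, of retina and of brain, with 3 libraries each, numbered 421, 953 and 960; every group, input included, carried both alleles. A choroid library came from the scraped choroid and pigment epithelium of 2 eyes, a retina library from 2 retinas and a brain library from 0.5 of a brain, and the input was set aside from the cleared lysate before the pull-down. Tie2 drives Cre in endothelial cells and, as known from mice, also in blood cell lineages. The column headers mark every library WT; the sources used here name no strain, sex or age. The labels do not say whether samples of one number come from one animal, so p-values measure the spread between these samples.

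The 12 endothelial marker genes summed to 8932 to 11480 CPM (the count scaled to library size) in choroid positive libraries, against 598.2 to 1096 CPM in choroid input. In retina they summed to 2030 to 3756 CPM in positive libraries, against 208.1 to 253.6 CPM in input, and in brain to 4919 to 7269 CPM in positive libraries, against 137.0 to 193.1 CPM in input. The tables list a gene where every library of 1 fraction reached 50 raw counts, a minimum that does not allow for library depth. A gene that met it in 1 fraction alone may be listed because it was higher there. Counts of marker and pathway genes are therefore given over genes that met it in both. Of these, endothelial markers passed the test as higher in the positive fraction for 12 of 12 genes in choroid, 6 of 7 in retina and 8 of 8 in brain. Microglia and macrophage markers passed as higher for 8 of 9 genes in choroid (the list summing to 16570 to 24020 CPM, against 1701 to 2913 CPM in input), 5 of 5 in retina (198.9 to 867.3 CPM, against 33.07 to 40.02 CPM in input) and 8 of 8 in brain (4710 to 5989 CPM, against 330.2 to 531.0 CPM in input). In retina, 11 rod and cone genes summed to 25590 to 40400 CPM in positive libraries, against 42020 to 43880 CPM in input, with 1 gene called higher and 4 lower. In brain, 8 neuron markers summed to 3208 to 4103 CPM in positive libraries, against 6114 to 6500 CPM in input (5 of 8 called lower), and 6 oligodendrocyte markers to 964.5 to 2291 CPM in positive libraries, against 4772 to 5135 CPM in input (5 of 6 called lower). Apart from their groups stood brain input 960, whose log2 values correlated at 0.9083 and 0.9103 with the other brain inputs (which correlated at 0.9943 with each other), and retina positive 960, which had the lowest endothelial sum (2030 CPM) and the highest rod and cone sum (40400 CPM) of its group. In choroid, number 421 stood apart in oligodendrocyte markers, of which 3 were measured: they summed to 1518 CPM in positive 421, against 96.93 and 158.1 CPM in the other positive libraries, and to 5185 CPM in input 421, against 197.8 and 293.5 CPM in the other inputs. Where leaving out 1 of these 4 libraries changed a call on an enzyme, the value without it is given. In bulk fractions, fewer cells of a type and less RNA per cell cannot be told apart.

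Positive fractions were set against inputs of the same tissue in edgeR's quasi-likelihood test, without pairing libraries by number. Benjamini-Hochberg adjustment was over all listed genes, and a gene was called at an adjusted p under 0.05. A replicate block, which does use the numbers, was an alternative. In choroid, 1 of the 10 enzymes was higher in the positive fraction (Ldha) and 5 were lower (Hk1, Pfkl, Pfkp, Aldoc and Ldhb), where 21.1% of all tested genes were called higher and 20.9% lower. In retina none was higher and 4 were lower (Hk2, Aldoc, Pgk1 and Ldha), against 18% and 13.7% of all genes; edgeR found 0 members higher also at an unadjusted p under 0.05, and DESeq2 0. In brain 1 was higher (Hk2) and 2 were lower (Pfkm and Aldoc), against 21.2% and 18.3% of all genes. The median log2 fold change of the 10 was -0.58 in choroid, -0.50 in retina and -0.29 in brain, beside -0.03, -0.01 and -0.07 over all genes. Scaling by library size alone moved the choroid median of all genes to -0.26, with 1756 genes called higher and 3340 lower in place of 2471 and 2451.

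**Figure D1:**
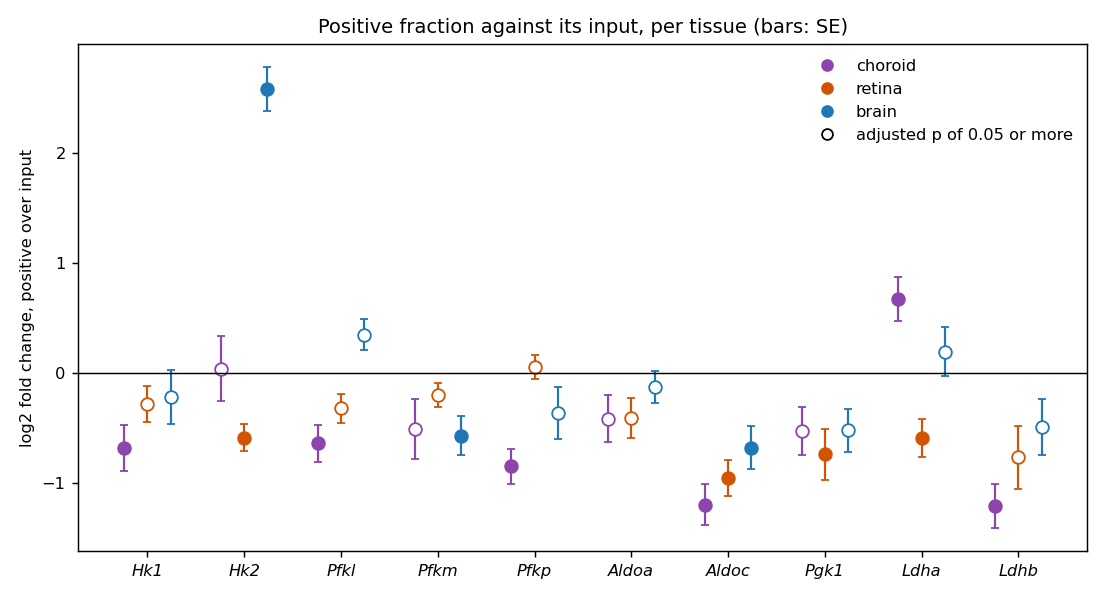
Log2 fold change of the positive fraction over its input (y axis) for each enzyme in choroid, retina and brain, from fits of 3 against 3 libraries per tissue; bars are standard errors, and filled points have an adjusted p under 0.05. Brain Hk2 stands alone near 2.58, choroid Ldha is the other filled point above 0, and Aldoc is filled below 0 in each tissue.

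Hexokinase 2, an inducible hexokinase, gave the sharpest contrast between tissues. In brain, Hk2 had 52.8, 56.5 and 44.2 CPM in the positive libraries, against 8.75, 6.92 and 10.2 CPM in the inputs. The groups did not overlap, and the positive fraction was 5.98-fold higher (log2 fold change 2.58 ± 0.20 SE, adjusted p = 0.000129, edgeR). The call held in every alternative processing and without any single library, with log2 fold changes of 2.32 to 2.79.

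In retina, Hk2 went the other way. It had 515.6, 427.8 and 452.4 CPM in retina positive libraries, against 661.3, 754.1 and 680.6 CPM in the inputs, with no overlap. The log2 fold change was -0.59 ± 0.12 (SE, adjusted p = 0.00775, edgeR). The call was kept in 13 of 16 alternatives, and the highest adjusted p among them all was 0.191. Losses included the fit without retina input 953 (adjusted p = 0.0553) and the fit of all 18 libraries (0.052). In choroid, Hk2 had 38.8, 42.9 and 47.9 CPM in positive libraries, against 24.9, 43.9 and 56.8 CPM in inputs; these overlapped, and the log2 fold change was 0.04 ± 0.29 (adjusted p = 0.919). Input library 421 was the lowest of the choroid values. The 8 rod and cone genes measured in choroid summed to 450.2, 2010 and 4463 CPM in inputs 421, 953 and 960. In the positive libraries of these numbers they summed to 162.0, 575.1 and 1894 CPM. The part of such RNA in choroid Hk2, and in choroid Ldha given below, was not tested.

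Differences in positive-over-input ratios between tissues were tested in 1 fit of all 18 libraries. For Hk2 the ratio in retina differed from that in brain by -3.02 ± 0.32 on the log2 scale (SE, adjusted p = 2.05e-05), and Hk2 was the only one of the 10 enzymes called in that comparison, in which 4.97% of genes were called lower and 8.33% higher. In that comparison, leaving out libraries gave 1 to 6 enzymes called. Pfkl, Pfkp, Pgk1, Ldha and Ldhb were each called in at least 1 alternative. The Hk2 difference lay among the lowest 0.209% of all genes. For choroid against brain it was -2.37 ± 0.33 (adjusted p = 6.45e-05), in a comparison in which 12.3% of genes were called lower and 12.2% higher, and Pfkl was the other enzyme called there. Both Hk2 differences were called in each of 28 alternatives. Between choroid and retina the Hk2 difference was 0.66 ± 0.32 (adjusted p = 0.134), and without choroid input 960 it was 0.98 (adjusted p = 0.0257). Endothelial markers and microglia and macrophage markers, listed above, were both higher beside brain Hk2. Both lists were higher also in choroid and retina, where Hk2 was not called higher. Rod and cone markers summed lower beside retina Hk2. The part of these cells in the Hk2 results was not tested.

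Hexokinase 1, the constitutive form of brain and most tissues, was lower in the choroid positive fraction. Hk1 had 172.0, 105.3 and 148.8 CPM in choroid positive libraries, against 215.6, 214.4 and 253.3 CPM in inputs, without overlap (log2 fold change -0.68 ± 0.21 SE, adjusted p = 0.0286). That call was lost without choroid input 953 (adjusted p = 0.0601), input 960 (0.0821), positive 953 (0.0707) or positive 960 (0.0615). In retina, Hk1 had 754.2, 858.2 and 1133 CPM in positive libraries, against 1070, 1102 and 1156 CPM in inputs, with positive 960 the only one within the input range (log2 fold change -0.28, adjusted p = 0.219). Without that library it was -0.44 (adjusted p = 0.00524). In brain, Hk1 had 295.1, 277.6 and 328.9 CPM in positive libraries, against 422.2, 392.7 and 232.5 CPM in inputs, and input 960 was the lowest of all 6 (log2 fold change -0.22 ± 0.24, adjusted p = 0.515). Without it the value was -0.44 (adjusted p = 0.00608).

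**Figure D2:**
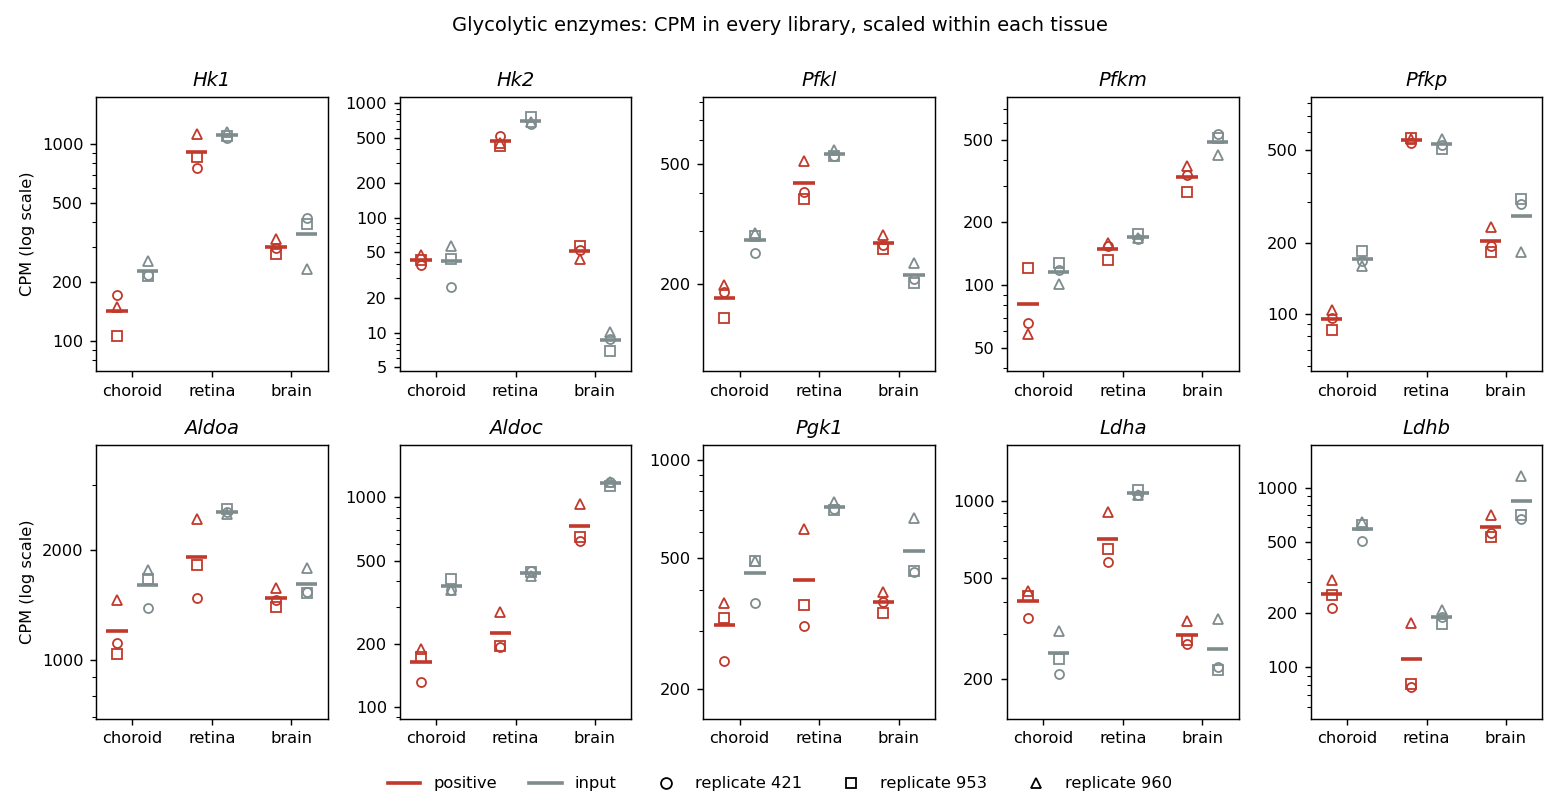
CPM of each enzyme in every library (y axis, log scale), positive fraction left of input in each tissue, scaled within the tissue; symbols mark the replicate numbers and bars the means of 3 libraries. Brain Hk2 and choroid Ldha lie above their inputs, Aldoc lies below its input in all 3 tissues, and brain input 960 and retina positive 960 (triangles) often lie apart from their groups.

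The phosphofructokinases divided by tissue. In brain, Pfkm, named for its main form in muscle, had 336.9, 279.8 and 372.9 CPM in positive libraries, against 532.3, 510.2 and 422.7 CPM in inputs, without overlap (log2 fold change -0.57 ± 0.18 SE, adjusted p = 0.0405). Pfkl, named for liver, had 267.9, 260.3 and 289.8 CPM in brain positive libraries, against 206.8, 200.8 and 234.3 CPM in inputs, also without overlap, but did not pass the test (0.35 ± 0.14, adjusted p = 0.0903). Pfkp, named for platelets, had 195.4, 182.9 and 234.1 CPM in brain positive libraries, against 295.1, 308.3 and 183.3 CPM in inputs, and the groups overlapped (-0.36, adjusted p = 0.256). Brain input 960 decided 2 of these: without it Pfkl was called higher (0.42, adjusted p = 0.00346) and Pfkp lower (-0.56, adjusted p = 0.004). The Pfkm call was lost with the replicate block (adjusted p = 0.0944), and without brain input 421 (0.134), input 953 (0.123), positive 421 (0.127), positive 953 (0.107) or positive 960 (0.0553). Neuron and oligodendrocyte markers, summed above, moved with brain Pfkm, and their part in it was not tested.

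In choroid, Pfkl and Pfkp were both lower in the positive fraction. Pfkp had 96.0, 85.2 and 103.8 CPM in choroid positive libraries, against 167.5, 185.5 and 159.5 CPM in inputs (log2 fold change -0.85 ± 0.16 SE, adjusted p = 0.00331). Pfkl had 187.7, 153.7 and 197.5 CPM in choroid positive libraries, against 253.1, 288.4 and 295.3 CPM in inputs (-0.64 ± 0.17, adjusted p = 0.0169). Neither overlapped; the Pfkl call was lost without choroid input 953 (adjusted p = 0.0585), input 960 (0.0531) or positive 953 (0.0539), and the Pfkp call was kept without any single library. Pfkm had 65.8, 121.0 and 58.1 CPM in choroid positive libraries, against 118.1, 128.1 and 101.6 CPM in inputs, where positive 953 lay within the input range (-0.50 ± 0.27, adjusted p = 0.167); it was called with the replicate block (-0.57, adjusted p = 0.0142) and without positive 953 (-0.90, adjusted p = 0.0121).

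In retina none of the 3 passed the test. Pfkp had 536.6, 563.6 and 562.4 CPM in retina positive libraries, against 529.0, 509.6 and 560.2 CPM in inputs (log2 fold change 0.06, adjusted p = 0.702). Pfkl had 404.7, 381.0 and 511.4 CPM in retina positive libraries, against 531.7, 531.5 and 555.5 CPM in inputs (-0.32, adjusted p = 0.0984; -0.44 and 0.00388 without retina positive 960), and Pfkm 154.8, 132.2 and 159.1 CPM in positive libraries, against 167.3, 175.9 and 169.4 CPM in inputs (-0.20, adjusted p = 0.186). Retina Pfkp was thus the only one of the 3 whose groups overlapped. Set against other tissues, the Pfkp ratio was lower in choroid than in retina on the log2 scale (-0.88 ± 0.25 SE, adjusted p = 0.0161, in a comparison in which 18% of genes were called lower and 10.9% higher), and the Pfkl ratio was lower in choroid than in brain (-0.81 ± 0.21, adjusted p = 0.00898). For retina minus brain the Pfkl difference was -0.53 ± 0.21 (adjusted p = 0.101) and the Pfkp difference 0.56 ± 0.25 (0.148). Both were called without brain input 960 (-0.82 and 0.00971 for Pfkl, 0.54 and 0.0479 for Pfkp), and Pfkl also without retina positive 960 (0.0338), choroid input 421 (0.0352) or 960 (0.0406), or choroid positive 421 (0.0353), 953 (0.0265) or 960 (0.0327).

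Aldolase splits fructose 1,6-bisphosphate into a pair of smaller sugars, and aldolase C is its brain form, known from astrocytes and Purkinje cells. It was the only one of the 10 enzymes to be called lower in the positive fraction of all 3 tissues. Hk1, Pfkm, Aldoa, Pgk1 and Ldhb also had negative log2 fold changes in all 3 tissues, but did not pass the threshold in each. In choroid, Aldoc had 132.7, 173.2 and 189.9 CPM in positive libraries, against 361.1, 410.2 and 363.8 CPM in inputs (log2 fold change -1.20 ± 0.19 SE, adjusted p = 0.00149). In retina it had 193.2, 196.6 and 285.5 CPM in positive libraries, against 445.1, 441.8 and 421.3 CPM in inputs (-0.95 ± 0.16, adjusted p = 0.00284). In brain it had 616.9, 644.6 and 927.1 CPM in positive libraries, against 1182, 1129 and 1186 CPM in inputs (-0.68 ± 0.20, adjusted p = 0.0315).

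No tissue had an overlap of the groups in Aldoc. The choroid and retina calls were kept without any single library, and the brain call was lost without brain input 421 (adjusted p = 0.0898), input 953 (0.0778), positive 421 (0.131) or positive 953 (0.111). The size of the deficit was not called different between tissues: -0.35 ± 0.27 for choroid minus brain (adjusted p = 0.37), -0.14 ± 0.27 for retina minus brain (0.774) and -0.21 ± 0.27 for choroid minus retina (0.594), which does not show that they are equal. The summed CPM of 8 astrocyte markers, led by Slc1a2 in brain and retina, was 1351 to 1981 in brain positive libraries, against 3036 to 3699 in input, and 460.7 to 557.1 in retina positive libraries, against 805.9 to 893.3 in input. In choroid it was 600.5 to 1215, against 1318 to 2948 in input, with number 421 the highest in both fractions; without choroid positive 421 the Aldoc value was -1.07 (adjusted p = 0.00344), and without choroid input 421 it was -1.24 (0.00337). Of the astrocyte genes that met the count minimum in both fractions, 4 of 5 were called lower in choroid, 4 of 5 in retina and 5 of 8 in brain. None of the 8 was at 0 in a library. Of the Müller glia markers that met the count minimum in both fractions, 5 of 6 were called lower in retina and 3 of 6 in brain. In choroid 4 of 5 were lower and 1 was higher. The 6 summed to 3048 to 4222 CPM in retina positive libraries, against 5112 to 5260 CPM in input. Neuron and oligodendrocyte markers moved with brain Aldoc as well, and the part of all these cells in the Aldoc results was not tested.

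Aldolase A, the most abundant of the 10 by its mean per length in every group, passed the test in none of the tissues. Aldoa had 1113, 1040 and 1460 CPM in choroid positive libraries, against 1388, 1663 and 1761 CPM in inputs (log2 fold change -0.41, adjusted p = 0.149). In retina it had 1481, 1821 and 2422 CPM in positive libraries, against 2527, 2574 and 2495 CPM in inputs (-0.41, adjusted p = 0.123), and in brain 1459, 1397 and 1577 CPM in positive libraries, against 1532, 1528 and 1781 CPM in inputs (-0.13, adjusted p = 0.526; -0.05 and 0.668 without brain input 960). With the replicate block choroid Aldoa was called (-0.42, adjusted p = 0.0351), and retina Aldoa was called without retina positive 960 (-0.60, adjusted p = 0.00236). Each positive library was below the input of its own number, in 3 of 3 pairs of each tissue.

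Phosphoglycerate kinase 1 makes the first ATP of the payoff phase. Pgk1 had 311.6, 360.9 and 614.1 CPM in retina positive libraries, against 705.2, 700.0 and 741.1 CPM in inputs (log2 fold change -0.74 ± 0.23 SE, adjusted p = 0.0388). Positive 960 lay nearest to the inputs, and the call was lost without retina input 421 (adjusted p = 0.0988), input 953 (0.101), input 960 (0.116) or positive 953 (0.146). In choroid, Pgk1 had 243.3, 329.7 and 365.4 CPM in positive libraries, against 366.0, 492.0 and 492.2 CPM in inputs; the groups did not overlap, by a margin of under 1 CPM (-0.53 ± 0.22, adjusted p = 0.0798). It was called there with the replicate block (adjusted p = 0.00539). In brain it had 367.8, 339.9 and 394.9 CPM in positive libraries, against 454.4, 458.9 and 665.6 CPM in inputs (-0.52, adjusted p = 0.0757), and without brain input 960 the value was -0.31 (adjusted p = 0.0197).

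The lactate dehydrogenases moved apart in choroid. Ldha had 346.7, 424.5 and 442.9 CPM in choroid positive libraries, against 210.0, 241.0 and 308.4 CPM in inputs, and Ldhb had 213.5, 251.0 and 306.4 CPM in positive libraries, against 507.1, 622.2 and 644.9 CPM in inputs. Neither gene's groups overlapped. By CPM, which does not allow for gene length, every positive library held more Ldha than Ldhb while every input held more Ldhb than Ldha. Per kilobase of exon, Ldha was 52.8%, 53.8% and 49.9% of lactate dehydrogenase RNA in choroid positive libraries 421, 953 and 960. Ldha was 1.60-fold higher in the positive fraction (log2 fold change 0.68 ± 0.20 SE, adjusted p = 0.0263) and Ldhb was lower (-1.20 ± 0.20, adjusted p = 0.00209). The Ldhb call was kept without any single library. The Ldha call was lost without choroid input 421 (0.55, adjusted p = 0.091), input 953 (0.63, 0.101), positive 953 (0.64, 0.0723) or positive 960 (0.61, 0.0726), and when scaled by library size alone (0.45, 0.0745).

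Pigment epithelium markers were lower beside Ldhb in choroid: the 6 measured genes, led by Ttr and all called lower, summed to 3330 to 7193 CPM in positive libraries, against 12950 to 20380 CPM in inputs. Melanocyte markers (6 of 6 genes called lower) and fibroblast markers (4 of 4 that met the count minimum in both fractions) were lower as well. Leukocyte markers were higher beside Ldha, with 5 of 5 genes called higher. They summed to 1013 to 1270 CPM in positive libraries, against 144.5 to 296.2 CPM in choroid inputs. Endothelial markers and microglia and macrophage markers, given above, were also higher in choroid, and in retina too, where Ldha was lower. No measured gene of these lists was at 0 in a library, and the part of these cells in the result was not tested.

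In retina, Ldha was lower in the positive fraction. It had 578.3, 648.3 and 909.0 CPM in retina positive libraries, against 1054, 1110 and 1056 CPM in inputs, without overlap (log2 fold change -0.59 ± 0.17 SE, adjusted p = 0.0305). The call was lost without retina input 421 (adjusted p = 0.0912), input 953 (0.11), input 960 (0.0955) or positive 953 (0.112). Ldhb had 77.8, 81.0 and 176.9 CPM in retina positive libraries, against 191.4, 175.0 and 207.3 CPM in inputs. Positive 960 overlapped the inputs, and Ldhb did not pass the test (-0.77 ± 0.29, adjusted p = 0.0707); it did with the replicate block (-0.87, adjusted p = 0.0039) and without positive 960 (-1.25, adjusted p = 4.86e-05). The positive-over-input ratio of Ldha was higher in choroid than in retina by 1.30 ± 0.30 on the log2 scale (SE, adjusted p = 0.00421), among the highest genes of that comparison (rank at 97.1% from the lowest).

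In brain neither lactate dehydrogenase passed the test. Ldha had 275.8, 284.2 and 338.1 CPM in brain positive libraries, against 224.2, 216.9 and 344.1 CPM in inputs (log2 fold change 0.19, adjusted p = 0.521), and Ldhb had 560.6, 530.8 and 706.4 CPM in positive libraries, against 672.3, 701.1 and 1154 CPM in inputs (-0.49, adjusted p = 0.167). Input 960 was the highest brain library for both genes. Without it Ldhb was at -0.20 (adjusted p = 0.233), Ldha was called higher in the brain positive fraction (0.44, adjusted p = 0.00921), and over all 10 enzymes 3 were called higher and 5 lower. All-gene calls in brain ranged from 1455 to 9618 of 12919 over the fits that left out libraries, against 5103 with all. The count of enzymes is therefore a description only. The retina-minus-brain difference of Ldha was -0.65 ± 0.30 (adjusted p = 0.164), and -1.12 without brain input 960 (adjusted p = 0.00817).

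The 250 bases before the start of Ldha, Ldhb and Hk2 are shown because these genes carry the contrasts between tissues and fractions. They are RefSeq windows of build GRCm38.p6, at chr7:46845554-46845803 on the plus strand for Ldha, chr6:142507958-142508207 on the minus strand for Ldhb and chr6:82774455-82774704 on the minus strand for Hk2. Ldha has 2 such windows, of which the one that ends at the gene's listed start is shown, and Ldhb and Hk2 have 1 each. Each is written from 5′ to 3′ on the gene's strand. Capitals mark the letters ACGTG, the core that hypoxia-inducible factors are known to bind, or CACGT, the same letters on the other strand.
Ldha: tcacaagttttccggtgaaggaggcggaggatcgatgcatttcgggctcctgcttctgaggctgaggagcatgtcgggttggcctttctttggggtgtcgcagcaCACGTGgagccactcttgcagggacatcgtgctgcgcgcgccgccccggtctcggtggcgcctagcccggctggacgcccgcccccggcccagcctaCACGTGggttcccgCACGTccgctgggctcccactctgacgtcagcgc
Ldhb: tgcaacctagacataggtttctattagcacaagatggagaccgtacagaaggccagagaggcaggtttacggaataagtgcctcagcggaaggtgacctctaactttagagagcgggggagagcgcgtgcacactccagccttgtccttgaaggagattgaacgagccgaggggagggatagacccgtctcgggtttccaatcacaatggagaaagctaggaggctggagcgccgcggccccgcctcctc
Hk2: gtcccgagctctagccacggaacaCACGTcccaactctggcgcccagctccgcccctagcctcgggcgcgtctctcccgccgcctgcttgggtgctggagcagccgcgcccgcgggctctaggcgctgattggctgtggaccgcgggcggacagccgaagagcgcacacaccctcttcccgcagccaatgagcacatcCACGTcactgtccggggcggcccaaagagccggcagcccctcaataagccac
The Ldha window held ACGTG 2 times on the gene's strand and 3 times on the other, with 2 overlaps as the palindrome CACGTG, the E-box. The Hk2 window held it 2 times, both on the other strand, and the Ldhb window held no such letters. Of all 32851 RefSeq windows of this length, 16.6% held ACGTG on either strand and 6.02% held CACGTG. All 10 enzymes matched by symbol, and 7 of their 18 windows held ACGTG. A match describes letters and shows no binding.

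Shares of each isozyme family, from CPM per kilobase of exon, put these differences on 1 scale within an enzyme. In choroid, Ldha made up 52.2% ± 2.03 of lactate dehydrogenase RNA in the positive fraction and 22.7% ± 1.94 in input (SD, n = 3 each). In brain the Ldha share was 25.7% ± 1.10 in the positive fraction and 17.8% ± 0.862 in input, and in retina 82.1% ± 3.56 in the positive fraction and 79.4% ± 1.82 in input. The log2 ratio of Ldha to Ldhb, which does not depend on the lengths used, differed between positive fraction and input by 1.90 in choroid and 0.68 in brain, both without overlap, and by 0.26 in retina, with overlap. With 3 libraries against 3, an exact two-sided permutation test cannot go below p = 0.1, which choroid and brain reached (0.167 after Benjamini-Hochberg adjustment over 15 ratios), while retina gave an exact p = 0.3. Without retina positive 960 the retina difference was 0.45, with no overlap, and without positive 953 it was 0.14, with overlap.

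Hk2 made up 12.9% ± 2.34 of hexokinase 1 and 2 RNA in the brain positive fraction and 2.30% ± 1.17 in brain input (SD, n = 3 each). Its share was 21.4% ± 4.91 in choroid positive libraries and 13.4% ± 3.82 in choroid inputs, and 31.0% ± 5.75 in retina positive libraries and 35.2% ± 1.79 in retina inputs. The log2 ratio of Hk1 to Hk2 differed by -2.75 in brain and -0.83 in choroid, both without overlap, and by 0.29 in retina, with overlap. The retina difference was 0.50 with no overlap without positive 421 and 0.11 with overlap without positive 960, and the choroid difference was -0.53 without input 421. Aldoc was the smaller aldolase share in every group, and the Aldoa to Aldoc ratio was higher in the positive fraction by 0.79 in choroid, 0.54 in retina and 0.58 in brain, each without overlap (exact p = 0.1, the smallest possible). In brain, Pfkm held 47.6% ± 1.92 of phosphofructokinase RNA in the positive fraction and 57.9% ± 0.907 in input, and Pfkl 31.8% ± 1.86 in the positive fraction and 20.7% ± 4.16 in input.

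**Figure D3:**
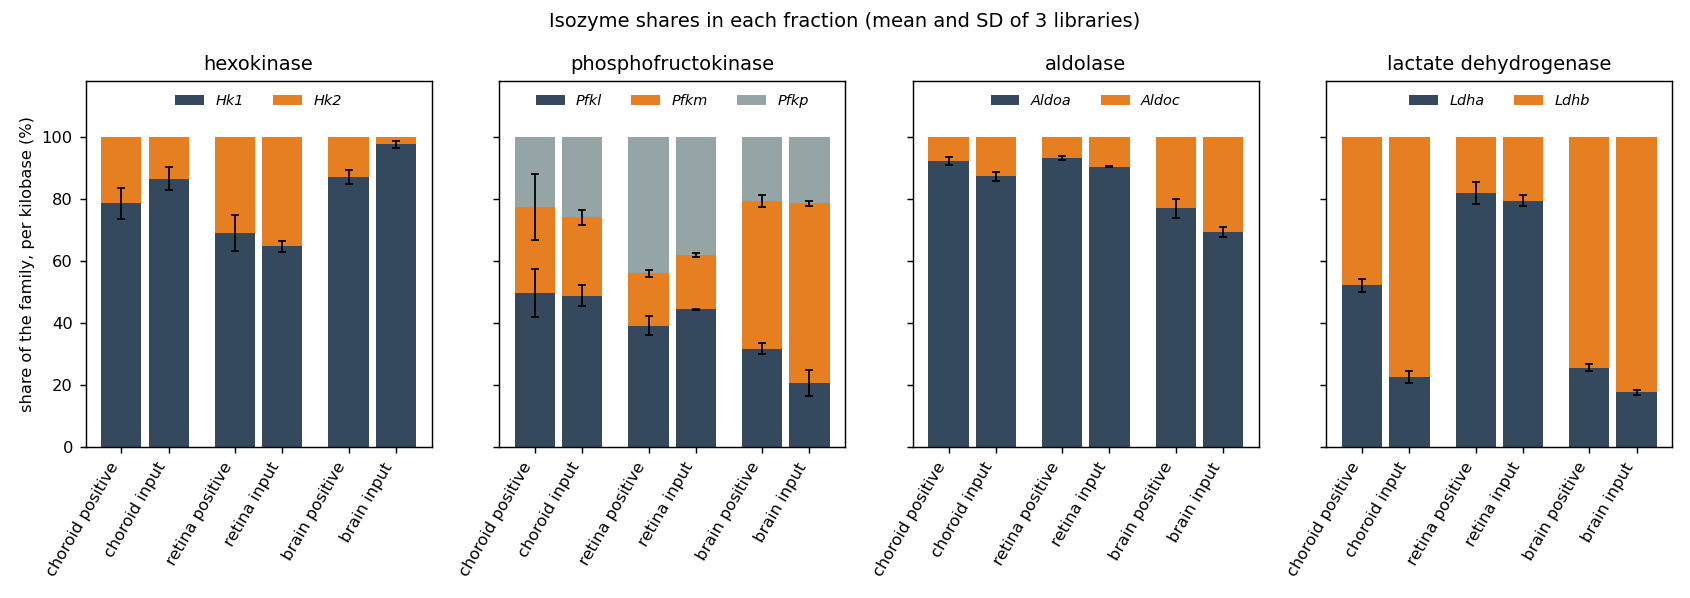
Share of each isozyme in its family (y axis, percent of summed CPM per kilobase) in the positive fraction and input of choroid, retina and brain; bars are means of 3 libraries and error bars the SD of each boundary. The Ldha share is 52.2% in the choroid positive fraction and 22.7% in choroid input, and the Hk2 share is 12.9% in the brain positive fraction and 2.30% in brain input.

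Levels per kilobase on a scale shared by all 18 libraries ranged most for Hk2, with a mean of 130.4 in retina input and 1.77 in brain input, a ratio of 73.6. Retina positive libraries had 84.1 ± 7.67 CPM per kilobase of Hk2, brain positive libraries 9.23 ± 1.03 and choroid positive libraries 8.77 ± 0.973 (SD, n = 3 each); the last 2 did not differ beyond their spread, and choroid input, at 8.59 ± 3.27, was within its spread of both. Aldoa ranged least, with means of 752.9 in choroid positive libraries and 1454 in retina input. Choroid positive libraries had the lowest mean of 7 enzymes (Hk1, Pfkl, Pfkm, Pfkp, Aldoa, Aldoc and Pgk1). Ldha had 381.6 ± 93.1 CPM per kilobase in retina positive libraries, 243.4 ± 31.4 in choroid positive libraries and 160.2 ± 19.8 in brain positive libraries. Ldhb stood in another order, with 87.1 ± 43.7 in retina positive libraries, 224.7 ± 42.2 in choroid positive libraries and 466.3 ± 78.7 in brain positive libraries, and its highest mean was 745.4 ± 234.6 in brain input.

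Between positive fractions, in a fit of the 9 positive libraries, retina was higher than brain for 5 enzymes and lower for 3, where 32.1% of genes were called higher and 31.0% lower. Hk2 (log2 fold change 3.26 ± 0.17 SE, adjusted p = 4.02e-08), Hk1 (1.68), Pfkp (1.52), Ldha (1.33) and Pfkl (0.74) were higher in retina, and Ldhb (-2.34 ± 0.30, adjusted p = 2.86e-05), Aldoc (-1.62) and Pfkm (-1.07) were lower. Each of these 8 was called in all alternatives tried, and Aldoa was called as well without retina positive 421 (0.60, adjusted p = 0.0304). The inputs of the same tissues differed in the same comparison for Hk2 by 6.21 ± 0.34 (adjusted p = 2.41e-06), and 6 enzymes were higher in retina input and 3 lower, where 24.3% of genes were called higher and 34.7% lower. Without brain input 960, Pgk1 was called higher there too (0.64, adjusted p = 0.00369). Rod and cone genes in the retina positive fraction, given above, moved with these levels and their part was not tested.

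Choroid positive libraries had 6 enzymes lower than brain positive libraries and 0 higher, where 23.8% of genes were called lower and 23.1% higher. These were Aldoc (-2.07 ± 0.24 SE, adjusted p = 1.25e-05), Pfkm (-1.94), Ldhb (-1.15), Pfkp (-1.03), Pfkl (-0.52), and also Hk1 (adjusted p = 0.00256). In edgeR 1 enzyme was higher at an unadjusted p under 0.05, and DESeq2 called 1 higher, in both cases Ldha (0.56 and adjusted p = 0.0177 in DESeq2). Without retina positive 960, retina positive 421 or choroid positive 421 edgeR called it as well (adjusted p = 0.0262, 0.035 and 0.0303). Losses of the Pfkl call included the fits without choroid positive 953 (0.101), brain positive 421 (0.0703) or brain positive 960 (0.0914). Pfkl was called in 13 of 18 alternatives, and Hk1 and Ldhb in 17 of 18 each (highest adjusted p of 0.194, 0.0525 and 0.0525). Between the inputs of these tissues, 2 enzymes were higher in choroid (Hk2 at 2.29 ± 0.29, adjusted p = 0.000144, and Pfkl at 0.38) and 4 lower (Pfkm, Aldoc, Pfkp and Hk1), where 26.7% of genes were called higher and 27.4% lower. The Pfkl, Pfkp and Hk1 calls there were each lost without brain input 421 (adjusted p = 0.0873, 0.0826 and 0.133) and without brain input 953 (0.101, 0.0907 and 0.111). Pfkl was lost also without choroid input 953 (0.127) or 960 (0.129) or any of the retina inputs (0.0539 to 0.0568), Pfkp without choroid input 960 (0.0526), and Hk1 without choroid input 421 (0.0587) or 953 (0.0761) or any of the retina inputs (0.0586 to 0.0601). Ldhb was called lower in choroid without brain input 421 (-0.65, adjusted p = 0.0466).

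Against retina, choroid positive libraries were lower for 7 enzymes and higher for 1, where 39.1% of genes were called lower and 32.9% higher. The lower ones were Hk2 (-3.43 ± 0.18 SE, adjusted p = 1.51e-08), Hk1 (-2.68), Pfkp (-2.54), Pfkl (-1.26), Pfkm (-0.86), Ldha (-0.81) and Aldoa (-0.66), and the higher one was Ldhb (1.20 ± 0.29, adjusted p = 0.0025). The Aldoa call was lost without choroid positive 953 (adjusted p = 0.0765) or retina positive 960 (0.0783), and Pgk1 was called lower without retina positive 421 (-0.64, adjusted p = 0.0302). Aldoa was called in 15 of 18 alternatives, and Pfkm and Ldhb in 17 of 18 each. Of the inputs, choroid was lower for 8 enzymes and higher for Ldhb (1.77 ± 0.22, adjusted p = 0.000123), where 31.9% of genes were called lower and 31.9% higher. The Pfkm and Pgk1 calls among them were lost without any of the retina inputs (adjusted p of 0.0689 to 0.0894 and of 0.0732 to 0.093). Between inputs Aldoa was called in 16 of 18 alternatives. The comparisons between tissues share libraries, so their values stand side by side only.

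**Figure D4:**
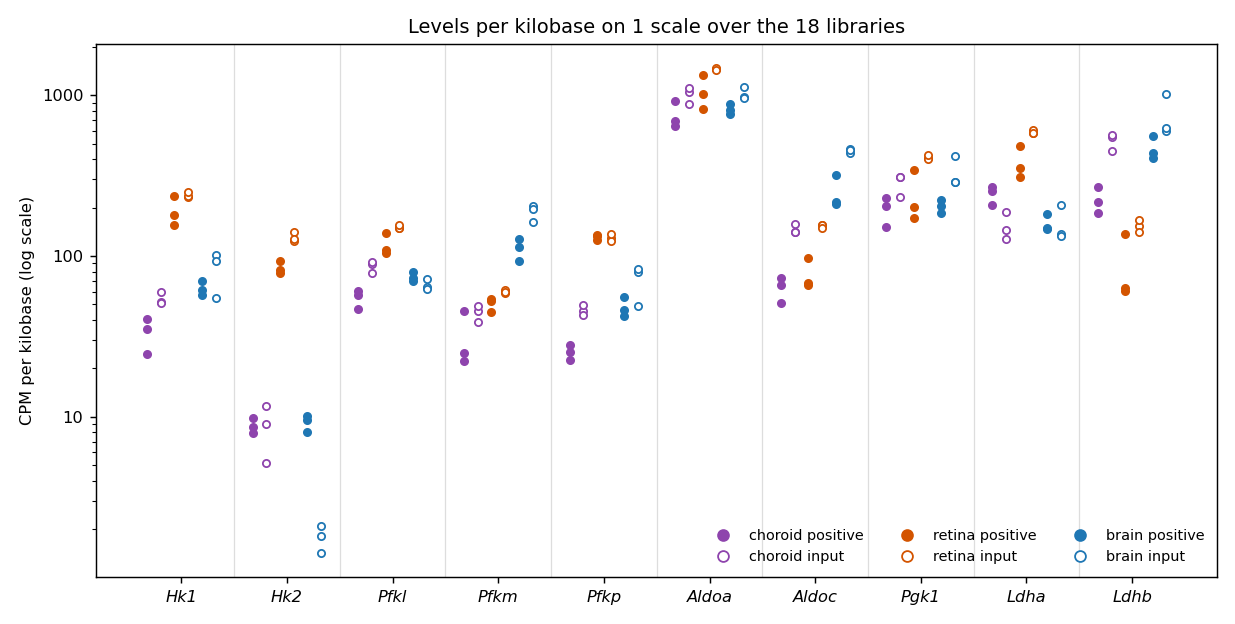
Level of each enzyme in every library (y axis, CPM per kilobase of exon on a log scale, scaled over all 18 libraries); colours mark tissues, filled points positive fractions and open points inputs. Hk2 spans the widest range, from 1.77 on average in brain input to 130.4 in retina input, and Aldoa is the highest enzyme in each group.

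Of 13 other glycolytic enzymes measured in each tissue, 11 met the count minimum in both fractions. Of these, 1 was higher and 2 were lower in the choroid positive fraction, where 21.1% of all genes were called higher and 20.9% lower, 2 were higher and 3 lower in retina (18% and 13.7% of all genes), and 0 were higher and 3 lower in brain (21.2% and 18.3%), by edgeR; in brain 1 was higher and 4 were lower at an unadjusted p under 0.05. Their medians were -0.04, -0.34 and -0.04. The higher gene in choroid was Hk3, the hexokinase of blood cells (3.07 ± 0.23 SE, adjusted p = 8.34e-05). In brain, Hk3 had 24.4, 27.1 and 18.1 CPM in positive libraries, against 2.16, 1.53 and 0.867 CPM in inputs; it met the count minimum in the positive fraction alone, so that difference is given as values with no test, beside the microglia and macrophage sums given above. Eno1 and Eno2, enolases of most tissues and of neurons, were lower in choroid (-0.68 and -1.72), Eno2 also in brain (-0.70) and Eno1 in retina (-0.76). Gapdh (-0.65) and Pkm, pyruvate kinase (-0.66), were lower in retina, where Gpi1 (0.77) and the muscle enolase Eno3 (0.78) were higher, and in brain Hkdc1 (-0.88) and Pgam1 (-0.46) were lower.

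Among regulators, the kinases and phosphatases that set fructose 2,6-bisphosphate and the enzymes of pyruvate entry, brain had 2 of 11 higher (21.2% of all genes were), Pfkfb3 (0.92 ± 0.27 SE, adjusted p = 0.0316) and Pdk1 (0.41), and 2 lower (18.3% of all genes), Pfkfb2 (-0.69) and Pdk3 (-0.60). Pfkfb3, known as a driver of endothelial glycolysis in vessel sprouting, had 92.3, 93.3 and 84.2 CPM in brain positive libraries, against 53.6, 59.5 and 28.9 CPM in inputs. Of the 9 that met the count minimum in both choroid fractions, 0 were higher and 4 lower (Pfkfb2, Pdk1, Pdk2 and Pdha1), beside 21.1% and 20.9% of all genes, and retina had 0 of 10 in either direction, beside 18% and 13.7%, by edgeR; at an unadjusted p under 0.05 choroid had 1 higher and 4 lower, and retina 0 higher and 2 lower.

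Of the carriers, the glucose transporter Slc2a1, a known mark of barrier-forming vessels, was higher in the positive fraction of brain (4.48 ± 0.23 SE, adjusted p = 4.12e-05) and retina (2.70 ± 0.18, adjusted p = 1.01e-05), and lower in that of choroid (-0.81 ± 0.27, adjusted p = 0.0424). In brain, 2 of the 3 carriers that met the count minimum in both fractions were higher, Slc2a1 and the lactate carrier Slc16a1 (1.34), and 0 were lower by edgeR's adjusted p, with 1 lower at an unadjusted p under 0.05; all-gene shares were 21.2% and 18.3%. The lactate carrier Slc16a3 met it in the brain positive fraction alone and had 10.0, 9.91 and 14.2 CPM in positive libraries, against 3.33, 2.67 and 4.12 CPM in inputs, given with no test. In choroid 3 of 3 were lower, Slc2a1, Slc16a1 (-1.92) and the pigment epithelium carrier Slc16a8 (-2.05), where 20.9% of all genes were lower. Slc16a3 met the minimum in choroid input alone and was higher in the positive fraction (1.48 ± 0.36 SE, adjusted p = 0.0112). In retina 1 of 4 was higher, Slc2a1, and 1 lower, Slc2a3 (-0.54), a neuronal glucose carrier, beside 18% and 13.7% of all genes.

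**Figure D5:**
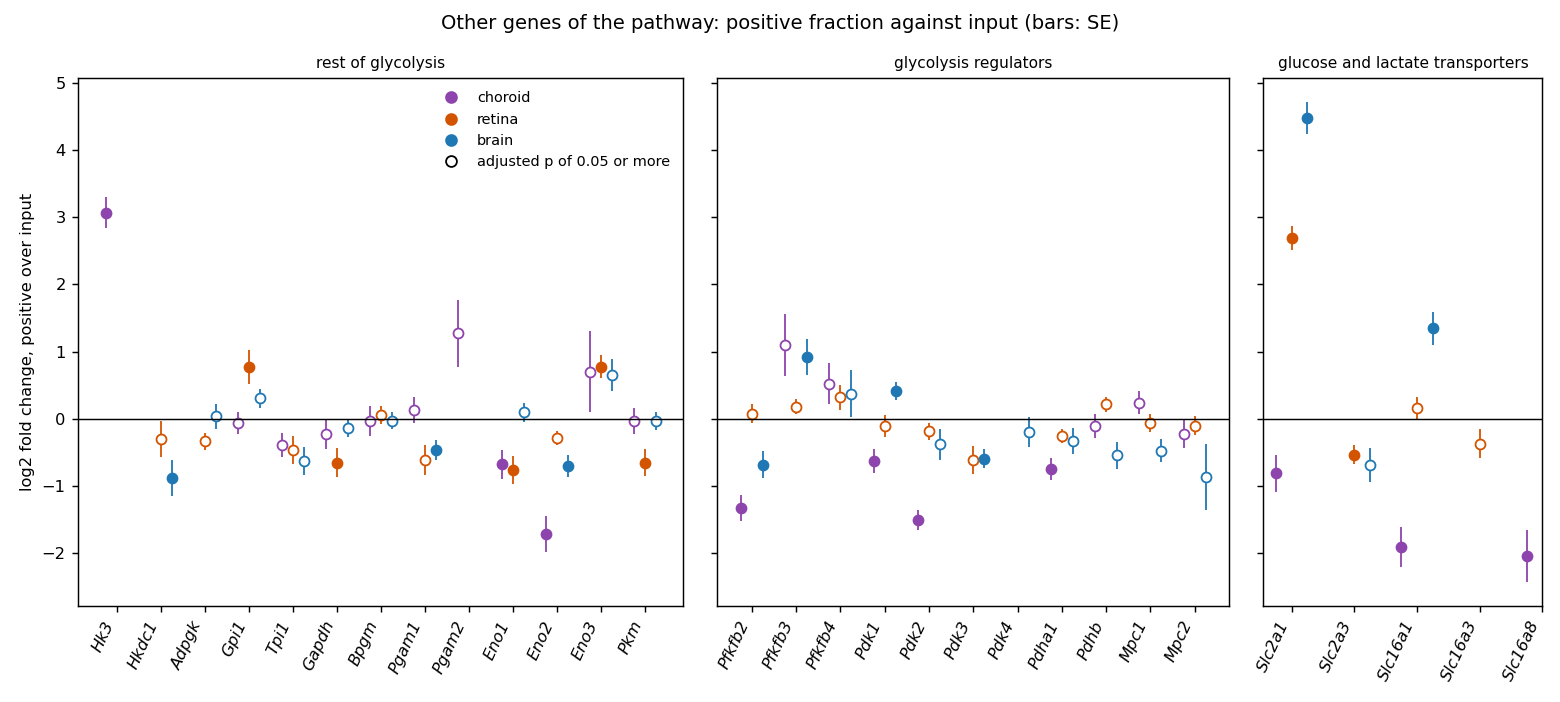
Log2 fold change of the positive fraction over its input (y axis) for other glycolytic enzymes, regulators and carriers in choroid, retina and brain; only genes that met the count minimum in both fractions of a tissue are drawn, bars are standard errors, and filled points have an adjusted p under 0.05. Slc2a1 reaches 4.48 in brain and Hk3 3.07 in choroid.

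Likeness of the enzymes was measured as the correlation of log2 CPM across the 18 libraries, as a description, since libraries of one tissue share cells and preparation. Hk1 and Pfkp were the most alike members (Pearson r = 0.974), and Hk2 and Ldhb the least (r = -0.838), with Ldha and Ldhb at -0.726. Among 10186 genes, those most like each enzyme were Ric8b and Ncoa2 for Hk1 (0.991 and 0.984), Egflam and Crlf3 for Hk2 (0.989 and 0.984), Zfp935 and Tfap2b for Pfkl (0.945 and 0.944), and Ngef and Nmnat2 for Pfkm (0.975 and 0.969). For Pfkp they were Tmem150c and Eml5 (0.992 and 0.987), for Aldoa Eno1 and Paqr4 (0.932 and 0.927), for Aldoc Olfm1 and Gdf1 (0.977 and 0.972), and for Pgk1 Ppa1 and Leo1 (0.942 and 0.916). For Ldha they were Kpna2 and 1200014J11Rik (0.963 and 0.957), and for Ldhb Atp5a1 and Tmem14a (0.967 and 0.966). Aldoa was thus the enzyme whose nearest gene was itself glycolytic, Eno1.

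In the tables' coordinates (build mm10), Hk1 lies at chr10:62268855-62379908, Hk2 at chr6:82725027-82774454, Pfkl at chr10:77986949-78009796, Pfkm at chr15:98092589-98132447, Pfkp at chr13:6579874-6648724, Aldoa at chr7:126795234-126800447 and Aldoc at chr11:78324198-78326760. Pgk1 lies at chrX:106187124-106203699, Ldha at chr7:46845804-46855627 and Ldhb at chr6:142490249-142507943. Aldoa, Pgk1 and Ldha have near-identical processed pseudogenes in the mouse, and how reads shared with them were counted is not stated in the labels or headers, so their counts are uncertain to that extent. The lowest raw value of any enzyme was 94.0 in a brain library, 113.3 in a choroid library and 511.3 in a retina library.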

How the data were processed

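The authors deposited 1 table per tissue with raw columns, expected counts that need not be whole (72.0%, 91.5% and 90.2% of values in choroid, retina and brain were not), which were rounded here, and normalized columns, log2 values that the authors set against input and that were not used. Per the file headers, listing took a raw value of at least 50 in all libraries of 1 fraction. DESeq and mm10 are the only tool and build in the submitters' processing notes, and no source used here gives the aligner or counter. Choroid libraries totalled 2649095 to 4587921 counts (positive) and 8807306 to 14484068 (input). Retina totals were 6260958 to 11071373 counts for the pull-down and 15243098 to 21521130 for input. Brain totals were 18618427 to 28277853 counts for the pull-down and 9596740 to 32064355 for input. Choroid positive libraries were the shallowest.

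Tests used edgeR 4.0.16 in R 4.3.3 (TMM, filterByExpr, quasi-likelihood F test), with Benjamini-Hochberg adjustment over 11718, 12369 and 12919 genes within choroid, retina and brain and over 10505 genes between tissues; CPM is scaled within each tissue unless stated. DESeq2 1.42.0, other scalings, filters, the replicate block and leaving out libraries were alternatives. Lengths are union exons of GENCODE vM21. Named genes are all members, measured genes of the fixed pathway lists, leading markers, and the 2 genes most like each member among those with a mean of at least 10 CPM. Members and lists were chosen with earlier results of these data known.

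Replicate numbers of positive fraction and input were taken as pairs within a tissue, since the labels' protocol takes both from 1 lysate. The main tests did not use these pairs, and the replicate block, an alternative, did. Deviations of paired libraries from their group means had correlations between 0.268 and 0.632 in choroid, between 0.00806 and 0.0868 in retina, and between 0.0339 and 0.189 in brain.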

Additional observations from a re-analysis of the deposited data

Results flagged for a closer look

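Tissues differed in the positive-over-input ratio of 4 enzymes, each by a test of the difference itself in edgeR, over 18 libraries. For Hk2 the log2 difference was -3.02 for retina minus brain (adjusted p = 2.05e-05) and -2.37 for choroid minus brain (adjusted p = 6.45e-05): Hk2 was higher in the positive library of its own number in 0 of 3 pairs in retina, 1 of 3 in choroid and 3 of 3 in brain. Pfkl differed by -0.81 for choroid minus brain (adjusted p = 0.00898), with 0 of 3 pairs higher in choroid and 3 of 3 in brain. Pfkp differed by -0.88 for choroid minus retina (adjusted p = 0.0161). Ldha differed by 1.30 for choroid minus retina (adjusted p = 0.00421), with 3 of 3 pairs higher in choroid and 0 of 3 in retina. No call was lost without any single library; the Pfkl, Pfkp and Ldha calls were lost without all libraries numbered 421 (adjusted p = 0.0689, 0.15 and 0.0546) and without those numbered 953 (0.245, 0.315 and 0.178).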

How the results depend on the processing

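Over 120 results (10 enzymes in 12 comparisons), no call changed sign under an alternative, and 38 of 64 calls were kept in all of them. The number of enzymes called was 3 in brain and 5 with all 18 libraries in one fit; for retina minus brain it was 1, and 2 with DESeq2 and with the replicate block (Ldha -0.70, adjusted p = 0.0432). The block gave 9, 5 and 2 enzymes called within choroid, retina and brain in place of 6, 4 and 3. All-gene calls were then 6635, 3886 and 4167, in place of 4922, 3922 and 5103. For choroid minus brain the block gave 3 enzymes in place of 2 (Ldha 0.65, adjusted p = 0.0392), with 2852 genes called in place of 2582. A block within each tissue, chosen after seeing the data, left the differences at 1, 2 and 2 enzymes. Between tissues, where samples share only a number, the block also called Ldha higher in choroid than in brain positive libraries (0.51, adjusted p = 0.0279) and Aldoc lower in choroid than in retina positive libraries (-0.43, 0.036), and it lost Hk1 between choroid and brain inputs (0.0669); it changed no other call between tissues. Leaving out libraries gave 2 to 6 enzymes called in choroid, 0 to 8 in retina, 1 to 9 in brain, 1 to 6 for retina minus brain, 1 to 3 for choroid minus brain and 0 to 3 for choroid minus retina. Between positive fractions it gave 3 to 7 for choroid against brain, and between inputs 3 to 6. The log2 ratio of Pfkm to Pfkl in choroid was 0.06 and ranged from -0.37 to 0.34. All-gene calls ranged from 1972 to 5073 in choroid (4922 with all libraries), 832 to 5748 in retina (3922), 1455 to 9618 in brain (5103), 72 to 2749 for retina minus brain (1397), 598 to 2973 for choroid minus brain (2582) and 624 to 4108 for choroid minus retina (3028). Library-size scaling split them 547 higher and 2196 lower for choroid minus brain (1286 and 1296 with TMM), 580 and 2683 for choroid minus retina (1141 and 1887), 631 and 574 for retina minus brain (875 and 522), 1711 and 3086 for choroid against brain positive libraries (2424 and 2495) and 3161 and 2829 for retina against brain inputs (2550 and 3650). In the fit of all 18 libraries, calls were 1443 higher and 676 lower in retina and 1926 and 3122 in brain. The cause was not tested. Depth was lowest in the choroid positive libraries.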
